A study of Homo sapiens with 6 samples.

Results

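Lysyl oxidases and the enzymes that process procollagen were examined as a set of 10 genes in LX-2, an established human line of hepatic stellate origin. Stellate cells are the cells of the liver that turn into collagen-producing myofibroblasts on injury. The members were chosen by symbol, with earlier results of these data known. They were the lysyl oxidases LOX, LOXL1, LOXL2, LOXL3 and LOXL4. With them were the C-proteinase BMP1, its enhancers PCOLCE and PCOLCE2, and the N-proteinases ADAMTS2 and ADAMTS14. All 10 had a row among the 16907 gene symbols measured, and 9 were among the 14853 genes tested, PCOLCE2 having too few counts. RNA was sequenced 72 h after transfection with a small interfering RNA at 20 nM, either a control (siControl) or one directed against OGT (siOGT), OGT being the enzyme that places O-GlcNAc on proteins. There were 3 libraries per group, from 3 independent experiments, and control and OGT-silenced cells of the same number were compared as a pair. Cultures of both groups were transfected with JetPrime and grown in medium with fetal bovine serum. LX-2 is a single cell line, and silencing was partial: OGT fell to 22.6%, 19.7% and 24.1% of siControl in the 3 pairs.

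Fibrillar collagens leave the cell as procollagens with a propeptide at each end. ADAMTS2 and ADAMTS14 cut off the N-propeptide, whereas BMP1 cuts off the C-propeptide, a step that PCOLCE speeds up by binding the C-propeptide. Lysyl oxidases are secreted, copper-dependent enzymes that oxidise lysines in collagen and elastin, and the aldehydes formed then join neighbouring molecules into cross-links. In fibrotic liver, cross-linked collagen is known to be stiffer and harder to degrade, and activated stellate cells are a source of these enzymes.

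Libraries held 25996770 to 27966801 expected counts, of which the 10 genes together took 39071 to 51396, or 0.150% to 0.194%. All 60 values of the members were whole numbers, with no tolerance allowed. Levels are given as CPM, counts scaled to the library total after TMM correction, with SD over 3 libraries. Of stellate markers, VIM had 79494 to 89187 counts per library, PDGFRB 2120 to 3751 and ACTA2 123 to 259, but LRAT, GFAP, DES and HAND2 had 0 to 9. Over the 13 stellate markers, 12 were tested, of which 4 fell and 2 rose (12.7% of all genes tested fell and 12.7% rose). Their summed level was 6387 to 7591 CPM in siControl and 5848 to 6718 CPM in siOGT. This list includes COL1A1 and COL1A2, which fell and are described below as substrates. The other 11 markers summed to 3754 to 4055 CPM in siControl and 3598 to 3831 CPM in siOGT, and of the 10 tested PDGFRB and THY1 fell while TAGLN and RELN rose. VIM had a log2 fold change of -0.06 and did not pass (edgeR adjusted p = 0.580). ACTA2, a marker of myofibroblasts, did not pass either (log2 fold change 0.25, edgeR adjusted p = 0.30). Its pairs gave log2 ratios of -0.26, 0.82 and 0.24. Hepatocyte markers summed to 3.55 to 4.56 CPM in siControl and 3.58 to 3.85 CPM in siOGT, with ALB at 0 to 3 counts. SERPINA1, with 85 to 115 counts per library, gave most of that sum and was not called. Cholangiocyte markers summed to 88.6 to 128 CPM in siControl and 91.4 to 129 CPM in siOGT. Most of this was SOX9, at 83.1 to 120 CPM in siControl and 86.7 to 122 CPM in siOGT, which was not called. EPCAM had 0 to 3 counts and KRT19 0 to 4, whereas KRT7 had 126 to 222 and was not called. Endothelial markers summed to 3.29 to 7.86 CPM in siControl and 3.00 to 5.87 CPM in siOGT. Of the 4 tested, 1 fell, VWF (log2 fold change -0.93, edgeR adjusted p = 0.011), and DESeq2 called 0, where it called 16.3% of all genes. Of the macrophage markers, 1 of 3 tested rose, the lysosomal gene CD68, and their sum was 131 to 162 CPM in siControl and 176 to 208 CPM in siOGT. PTPRC had 9 to 23 counts and CD163 0 to 2, whereas CD14 had 120 to 198 and was not called. The part of cells with any of these markers in the changes below was not tested. In such bulk RNA, fewer cells of a type and less RNA per cell cannot be told apart.

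A promoter stretch is shown for PCOLCE, the member with the largest change, for ADAMTS2 and ADAMTS14, enzymes of the same role that moved in opposite directions, and for LOX, the founding member of the family. The bases come from the RefSeq promoter table (GRCh38.p14), which held 8 of the 10 members, and run from up to 250 bases before the annotated start, 5′ to 3′ on the strand of the gene. Bases within an exon of any annotated transcript were left out. This removed the 154 bases nearest the start for LOX and the 23 nearest for PCOLCE. The PCOLCE stretch is chr7:100602113-100602339 on the plus strand, LOX chr5:122078414-122078509 on the minus strand, ADAMTS2 chr5:179345462-179345711 on the minus strand and ADAMTS14 chr10:70672256-70672505 on the plus strand. Capitals mark matches to the motifs searched.
PCOLCE: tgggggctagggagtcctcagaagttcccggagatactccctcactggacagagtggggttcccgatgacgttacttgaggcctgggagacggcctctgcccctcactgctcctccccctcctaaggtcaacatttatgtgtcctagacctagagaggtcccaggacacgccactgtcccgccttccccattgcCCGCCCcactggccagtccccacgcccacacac
LOX: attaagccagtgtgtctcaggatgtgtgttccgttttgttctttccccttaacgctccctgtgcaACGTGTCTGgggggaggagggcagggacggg
ADAMTS2: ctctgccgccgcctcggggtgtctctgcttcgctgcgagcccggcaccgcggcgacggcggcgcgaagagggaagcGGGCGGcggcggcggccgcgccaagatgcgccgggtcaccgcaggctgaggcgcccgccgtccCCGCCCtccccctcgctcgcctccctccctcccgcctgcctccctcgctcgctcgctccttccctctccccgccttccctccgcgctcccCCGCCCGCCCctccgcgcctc
ADAMTS14: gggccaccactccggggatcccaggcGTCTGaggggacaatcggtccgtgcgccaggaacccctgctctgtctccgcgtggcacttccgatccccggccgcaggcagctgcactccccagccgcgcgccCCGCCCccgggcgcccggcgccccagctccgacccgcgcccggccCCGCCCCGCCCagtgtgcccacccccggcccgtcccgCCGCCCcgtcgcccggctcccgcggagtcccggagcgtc

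Each motif was searched on both strands. Core promoter motifs were the letters TATAAA for the TATA box, the letters CCAAT for the box of that name and the letters GGGCGG for the GC box. Factor motifs were the letters GGAATG for TEAD, the letters TGANTCA for AP-1, the letters CAGAC for SMAD and the letters ACGTG for the hypoxia core. PCOLCE held 1 GC box, 56 bases before the start. ADAMTS2 and ADAMTS14 were GC-rich alike (80.0% and 80.4%) and held 4 GC boxes each, of which some overlapped, and ADAMTS14 also held 1 SMAD motif. LOX held 1 hypoxia core and 1 SMAD motif, which overlapped each other. None of these 4 stretches held a TATA box, CCAAT box, TEAD or AP-1 match. For LOX the 154 bases nearest the start were not searched, so a match there would have been missed. Of the members with a stretch that is not printed, LOXL3 held 2 TEAD motifs in 198 bases, 118 and 100 bases before the start, LOXL4 held 6 GC boxes and PCOLCE2 held 3. In stretches placed like that of LOXL3, 9.54% of promoters held the TEAD motif. Of 35116 promoters, 42.6% held a GC box, 38% a SMAD motif and 11.9% a TEAD motif in 250 bases. In stretches as long as that of PCOLCE (227 bases), 39.7% held a GC box. In stretches as long as that of LOX (96 bases), 6.61% held the hypoxia core and 17.7% the SMAD motif.

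Set against the rest of the transcriptome, the group was split in direction. Of the 9 members tested, 6 were called at an edgeR adjusted p of at most 0.05, where 25.4% of all genes tested were called in either direction. PCOLCE, LOXL1 and ADAMTS14 fell, where 12.7% of all genes were called lower, and LOX, LOXL4 and ADAMTS2 rose, where 12.7% were called higher. The median log2 fold change was -0.05 over the 9 members and 0.01 over all genes. LOXL2, LOXL3 and BMP1 did not pass. By DESeq2 with the same pairing, 3 members were called (PCOLCE, LOXL1 and LOX), where 16.3% of all genes were. Without the pairing, edgeR called only PCOLCE, where 0.875% of all genes were called. All siOGT libraries lay below all siControl libraries for PCOLCE and LOXL3, a pattern seen in 11.8% of all genes, and no member lay wholly above, as 12.1% of genes did.

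**Figure D1:**
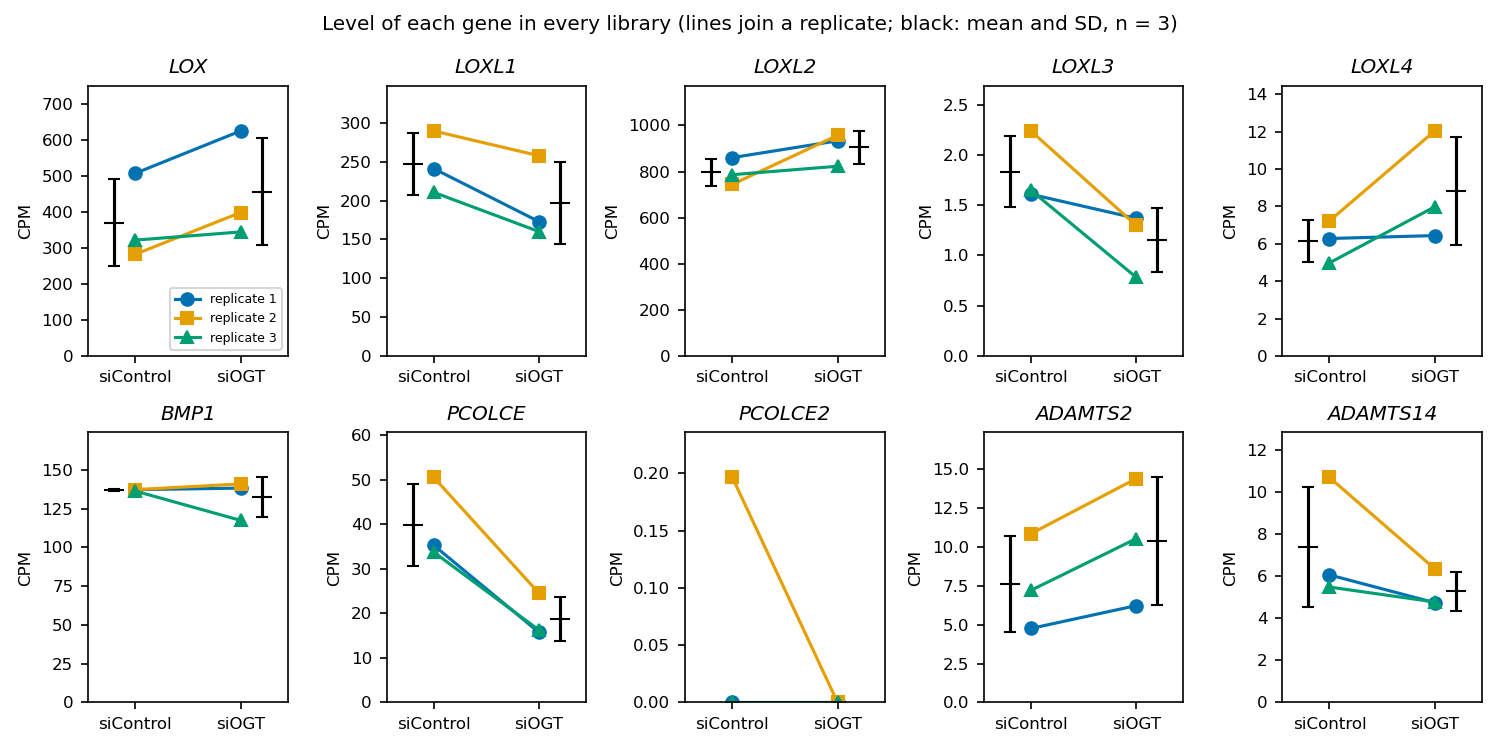
Level of each gene in CPM (linear axes from 0) in siControl and siOGT, with coloured lines joining the libraries of a replicate and black bars for mean and SD (n = 3, not drawn for PCOLCE2). PCOLCE falls in all 3 pairs with no overlap of the groups, whereas LOX and ADAMTS2 rise in all 3 pairs from starting levels that differ between replicates.

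Per kilobase of canonical transcript, LOXL2 was the most abundant member in siControl cells, with 214 ± 15.8 CPM per kb. LOXL1 followed at 105 ± 17.0 and LOX at 72.9 ± 23.6 CPM per kb, and these neighbours did not differ beyond their spread. With the length of all annotated exons instead, LOX and LOXL1 were at 66.1 and 67.9 CPM per kb. BMP1 stood at 38.1 ± 0.153 and PCOLCE at 26.3 ± 6.12 CPM per kb. LOXL4 (1.71 ± 0.314), ADAMTS14 (1.33 ± 0.513) and ADAMTS2 (1.12 ± 0.452 CPM per kb) overlapped in their spread, and LOXL3 lay lower at 0.497 ± 0.0958 CPM per kb. The N-proteinases and the LOXL3 and LOXL4 genes contributed few transcripts, and their fold changes rest on 21 to 387 counts per library.

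LOX, the founding enzyme of the family, which cross-links collagen and elastin after BMP1 removes its own propeptide, rose. The gene lies on chromosome 5, 122063195 to 122078413 (minus strand, hg38). It was at 507, 282 and 321 CPM in siControl replicates 1 to 3 and at 624, 398 and 344 CPM in siOGT. Replicate 1 was the highest in both groups, and the groups overlapped, but each siOGT library lay above its own control. The mean went from 370 ± 120 to 455 ± 149 CPM. On the log2 scale this was an increase of 0.30 with an SE of 0.0754 and a 95% interval from 0.14 to 0.46 (edgeR adjusted p = 0.0076). The pairs gave log2 ratios of 0.30, 0.50 and 0.10. The call was lost without the pairing (adjusted p = 0.565), without replicate 1 (0.080) and without replicate 2 (0.104, log2 fold change 0.20).

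LOXL1, the member best known for its role in elastic fibres (chromosome 15, 73925989 to 73952137, plus strand), fell. Its level was 241, 290 and 210 CPM in siControl and 173, 258 and 160 CPM in siOGT. Replicate 2 was the highest in both groups, and every pair went down, with log2 ratios of -0.48, -0.17 and -0.40. The mean fell from 247 ± 39.8 to 197 ± 53.0 CPM, a log2 fold change of -0.35 (SE 0.0708, interval -0.50 to -0.20, edgeR adjusted p = 0.0017). The call was lost without the pairing (adjusted p = 0.370) and without replicate 1 (0.071).

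LOXL2, a lysyl oxidase with scavenger receptor domains that oxidises collagen IV as well as fibrillar collagens, did not pass the test. The gene lies on chromosome 8, 23296897 to 23425328 (minus strand). It was at 860, 744 and 786 CPM in siControl and at 933, 957 and 823 CPM in siOGT, the highest level of the set. Each siOGT library was above its own control, though by little in replicates 1 and 3. The log2 fold change was 0.18 (interval 0.03 to 0.33, edgeR adjusted p = 0.075). It passed with scaling by library totals alone (adjusted p = 0.045, log2 fold change 0.20), without the filter on low counts (0.047) and without replicate 3 (0.027, log2 fold change 0.23). Without replicate 2 the log2 fold change was 0.09 (adjusted p = 0.542).

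LOXL4, which shares the scavenger receptor domains (chromosome 10, 98247690 to 98268194, minus strand), rose from a low level. It was at 6.28, 7.23 and 4.98 CPM in siControl and at 6.44, 12.0 and 7.98 CPM in siOGT. Replicate 1 hardly moved, with a log2 ratio of 0.04, against 0.73 and 0.67 in the other pairs. Its log2 fold change was 0.49 (SE 0.142, interval 0.20 to 0.79, edgeR adjusted p = 0.016). The call was lost without the pairing (adjusted p = 0.303), by DESeq2 (0.093), without replicate 2 (0.126) and without replicate 3 (0.094).

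LOXL3 (chromosome 2, 74532258 to 74555690, minus strand) had 43, 57 and 46 counts in siControl and 37, 35 and 21 in siOGT. The groups did not overlap, at 1.83 ± 0.353 against 1.15 ± 0.321 CPM, yet the log2 fold change of -0.68 had a wide interval (-1.27 to -0.08) and did not pass (edgeR adjusted p = 0.089). Exons of HTRA2 on the opposite strand cover 20.7% of the LOXL3 exonic bases, and HTRA2 rose (log2 fold change 0.30, edgeR adjusted p = 0.0084). The authors' counting used strand. Other members share exonic bases too: opposite-strand exons of PCOLCE-AS1 cover 16.8% of those of PCOLCE, and LOXL1-AS1 covers 9.21% of LOXL1. On the same strand, a long non-coding RNA gene covers 6.52% of BMP1 and ENTPD4 covers 2.01% of LOXL2. The part of these overlaps in the changes was not tested.

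**Figure D2:**
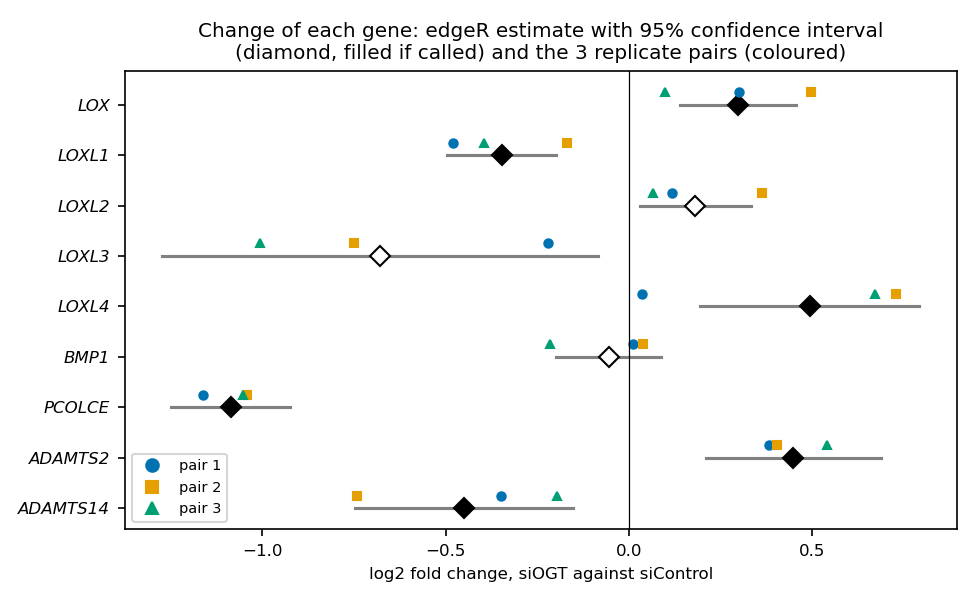
log2 fold change of siOGT against siControl for the 9 genes tested, with diamonds for the edgeR estimate (filled where the adjusted p was at most 0.05), grey lines for its 95% confidence interval and coloured symbols for the 3 pairs. PCOLCE lies farthest from 0 at -1.09 with its 3 pairs close together, whereas the interval of BMP1 spans 0.

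Added per length, lysyl oxidase transcripts came to 436, 382 and 366 CPM per kb in siControl and 450, 449 and 360 in siOGT. Replicates 1 and 2 were higher in siOGT and replicate 3 was not, with pair ratios of 1.03, 1.18 and 0.982. Within this sum, LOXL1 gave 23.6%, 32.3% and 24.5% in siControl and 16.4%, 24.4% and 19.0% in siOGT, a smaller share in each pair. The share of LOX went from 22.9%, 14.6% and 17.3% to 27.4%, 17.4% and 18.8%. The share of LOXL2 went from 53.0%, 52.4% and 57.7% to 55.8%, 57.3% and 61.5%, a larger share in each pair. The ratio of LOX to LOXL1 in CPM was 2.10, 0.974 and 1.53 in siControl and 3.61, 1.54 and 2.15 in siOGT. It grew by 1.72, 1.58 and 1.41 times, and that of LOXL2 to LOXL1 by 1.51, 1.44 and 1.38 times. No test was run on sums, shares or ratios, which are given as descriptions.

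**Figure D3:**
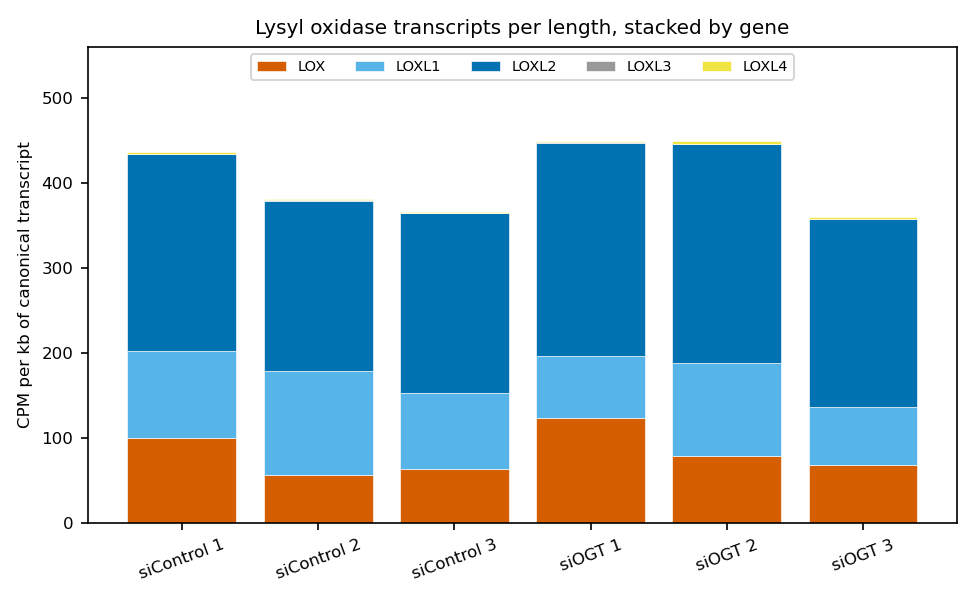
Lysyl oxidase transcripts in each library, in CPM per kb of canonical transcript, with the 5 genes stacked in bars that start at 0. LOXL2 makes up more than any other gene in all 6 libraries, and the LOXL1 segment is smaller in each siOGT library than in the siControl library of the same number.

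PCOLCE, the enhancer that raises the activity of BMP1 on procollagens without being a protease itself, changed most. The gene lies on chromosome 7, 100602363 to 100608175 (plus strand). It had 942, 1285 and 941 counts in siControl and 424, 659 and 435 in siOGT, or 35.2, 50.5 and 33.7 against 15.7, 24.5 and 16.2 CPM. Replicate 2 was highest in both groups, and the highest siOGT library was still below the lowest control. The mean fell from 39.8 ± 9.27 to 18.8 ± 4.93 CPM. In the paired fit, 47.1% of the control level was left. On the log2 scale the fold change was -1.09 (SE 0.0770, interval -1.25 to -0.92, edgeR adjusted p = 6.411e-08), and the pairs gave -1.16, -1.04 and -1.05. Of the 1881 genes called lower, 56 had a log2 fold change at or below that of PCOLCE, itself included. It was called in each of the 9 alternative analyses, with log2 fold changes of -1.11 to -1.05, and its largest adjusted p was 0.047, without the pairing. PCOLCE2, the related enhancer (chromosome 3, 142815922 to 142889206, minus strand), had 5 counts in siControl replicate 2 and 0 in the other 5 libraries, and 3 counts correspond to 0.108 to 0.118 CPM here.

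BMP1, the C-proteinase itself, which also activates LOX (chromosome 8, 22165140 to 22212326, plus strand), did not pass the test. It was at 137, 137 and 136 CPM in siControl and at 138, 141 and 118 CPM in siOGT. Replicates 1 and 2 were nearly level, while replicate 3 was lower in siOGT. The log2 fold change was -0.05 (interval -0.20 to 0.09, edgeR adjusted p = 0.609), and without replicate 3 it was 0.02. The interval thus held changes no larger than 0.20 in size on the log2 scale. The ratio of PCOLCE to BMP1 in CPM was 0.257, 0.368 and 0.247 in siControl and 0.113, 0.174 and 0.138 in siOGT. Transcripts of the enhancer were therefore 0.442, 0.472 and 0.558 times as abundant relative to those of its protease as in the paired controls. These are RNA values, and protein was not measured in these libraries.

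The N-proteinases moved in opposite directions. ADAMTS2, the main procollagen I N-proteinase (chromosome 5, 179110853 to 179345461, minus strand), had 127, 276 and 201 counts in siControl and 168, 387 and 282 in siOGT. In CPM this was 4.75, 10.8 and 7.20 against 6.22, 14.4 and 10.5. Replicates differed more than groups did, but the pairs were alike, with log2 ratios of 0.38, 0.40 and 0.54. This gave a log2 fold change of 0.45 (SE 0.113, interval 0.21 to 0.69, edgeR adjusted p = 0.0074). The call was lost without the pairing (adjusted p = 0.510) and by DESeq2 (0.066), and it held when any replicate was left out.

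ADAMTS14, a close relative that can also remove N-propeptides (chromosome 10, 70672506 to 70762441, plus strand), had 162, 272 and 153 counts in siControl and 128, 171 and 128 in siOGT. This was 6.06, 10.7 and 5.48 CPM against 4.74, 6.35 and 4.77 CPM. Replicate 2 was the highest library in both groups and gave the steepest pair (-0.74, against -0.35 and -0.20). The log2 fold change was -0.45 (SE 0.141, interval -0.75 to -0.15, edgeR adjusted p = 0.026). The call was lost without the pairing (adjusted p = 0.365), by DESeq2 (0.145), without replicate 1 (0.065) and without replicate 2 (0.308, log2 fold change -0.28). The ratio of ADAMTS2 to ADAMTS14 in CPM rose from 0.784, 1.01 and 1.31 to 1.31, 2.26 and 2.20.

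**Figure D4:**
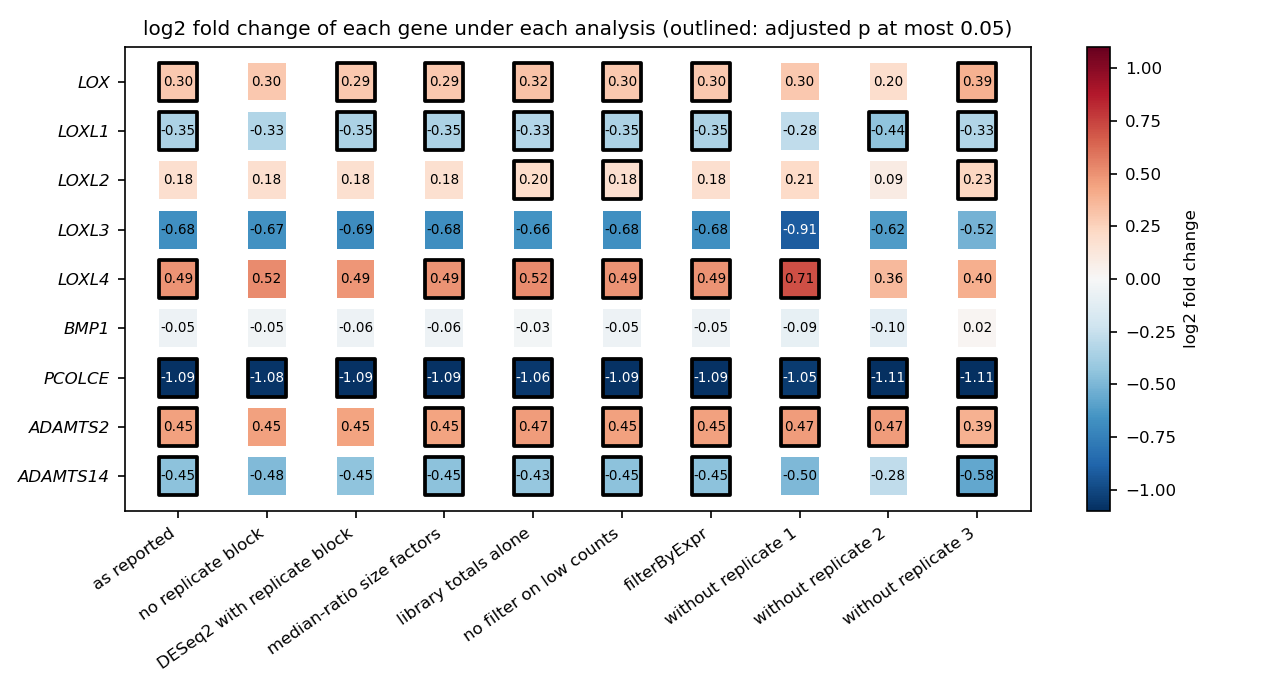
log2 fold change of each gene (rows) under the reported analysis and the 9 alternatives (columns), written in each square and coloured from blue (lower in siOGT) to red (higher), with an outline where the adjusted p was at most 0.05. PCOLCE is outlined in every column, and without the replicate block it is the only gene outlined.

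Much of the variation in these genes lay between replicates. The replicate number held 82.5% of the variance of log2 CPM for ADAMTS2 and 81.4% for LOX, against 17.1% and 14.4% for the group. For PCOLCE the group held 79.5% and the replicate 20.3%. In LOXL2 and LOXL3 the group also held the larger part, with 50.0% and 57.8%. The same replicate was highest in both groups for 6 of the 9 genes, replicate 1 for LOX and replicate 2 for LOXL1, LOXL4, PCOLCE, ADAMTS2 and ADAMTS14. LOX was thus highest in the replicate in which ADAMTS2 was lowest, whichever siRNA the cells had received.

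The substrates of these enzymes were given by a list of 12 fibrillar collagen and elastin genes. This list and those below were chosen with earlier results of these data known. Of the 12 genes, 7 fell and none rose, where 12.7% of all genes tested were called lower. The median log2 fold change was -0.36, with a range of -0.83 to 1.06 (all genes, median 0.01). The upper end is ELN, the elastin gene, which had 4, 0 and 0 counts in siControl and 5, 1 and 2 in siOGT and did not pass (edgeR adjusted p = 0.587). The largest falls were in COL5A3 (-0.83, edgeR adjusted p = 0.011), COL3A1 (-0.64, 5.260e-05) and COL5A1 (-0.60, 1.317e-05), which encode chains of collagens V and III. COL1A1, a chain of collagen I, fell by 0.39 on the log2 scale, from 2658 ± 485 to 2023 ± 356 CPM. By DESeq2, 5 of the list were called, where 16.3% of all genes were. Without replicate 1, 4 collagens were called lower, where 1803 of 14456 genes were called in either direction. Without the pairing 1 was called lower, where 0.875% of all genes were called in either direction. COL5A3 had 25 to 122 counts per library, and its call was lost by DESeq2 (adjusted p = 0.064) and without replicate 1 (0.091), while COL1A1 lost its call without replicate 1 (0.089).

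Set against the COL1A1 substrate in the same library, PCOLCE stood at 1.36, 1.59 and 1.52 CPM per 100 CPM of COL1A1 in siControl and 0.904, 1.01 and 0.849 in siOGT. PCOLCE was thus lower relative to COL1A1 in every pair, by factors of 0.663, 0.636 and 0.557. LOX went the other way, from 19.6, 8.88 and 14.5 to 35.9, 16.4 and 18.0 CPM per 100 CPM of COL1A1. LOXL2 also went up, from 33.3, 23.4 and 35.5 to 53.7, 39.5 and 43.1, as did ADAMTS2, from 0.184, 0.342 and 0.325 to 0.358, 0.594 and 0.550. LOXL1 stayed near its control ratio, with pair ratios of 1.07, 1.17 and 0.881. BMP1 gave pair ratios of 1.5, 1.35 and 0.9985, and ADAMTS14 gave 1.16, 0.779 and 1.01. Because COL1A1 itself fell, such a ratio can go up without a rise of the member. LOXL2 and BMP1 did not pass the test on their own levels.

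**Figure D5:**
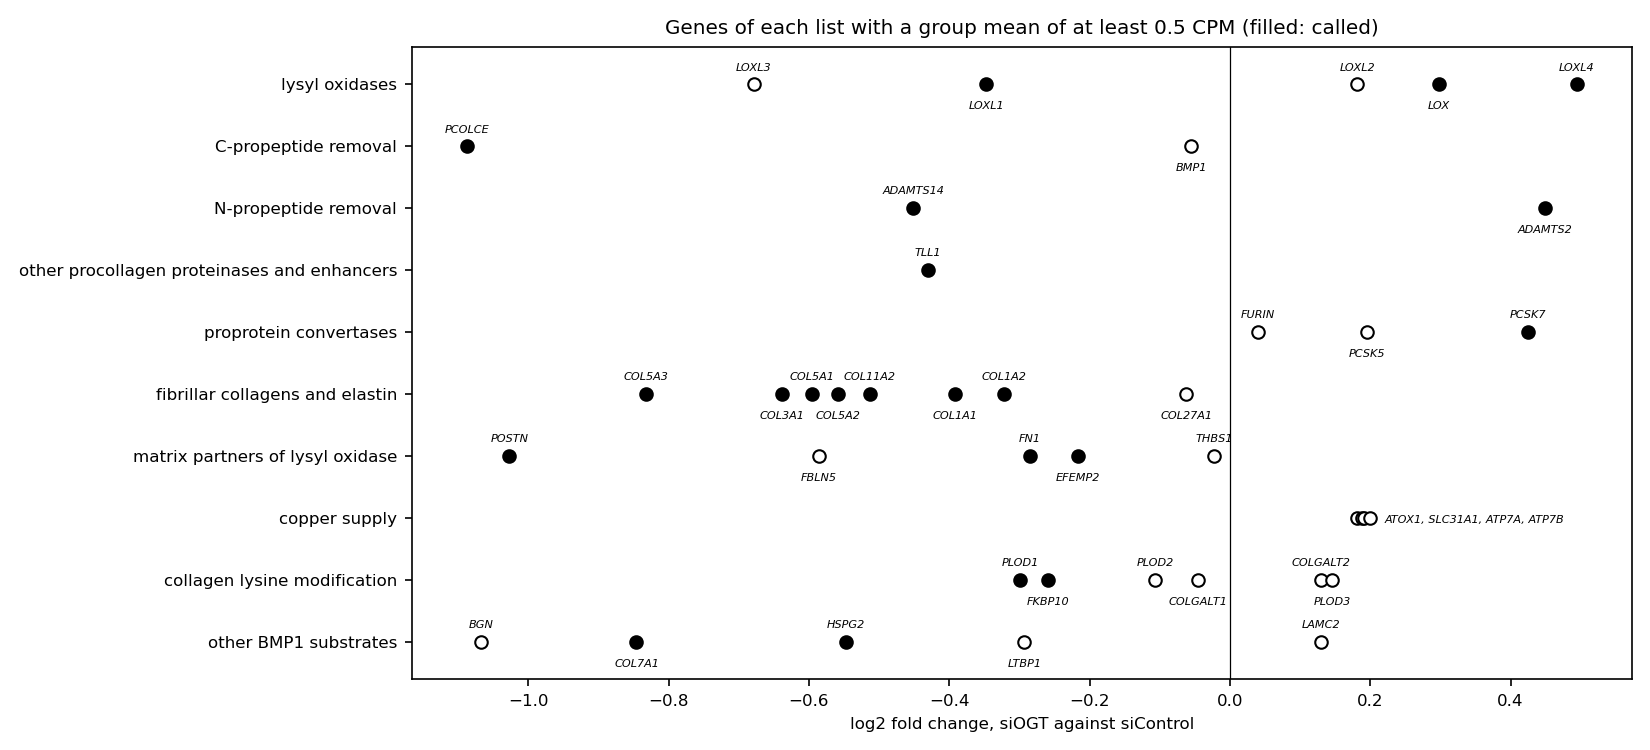
log2 fold change of siOGT against siControl for the genes of each list whose mean reached 0.5 CPM in a group, with 1 point per gene, filled where the edgeR adjusted p was at most 0.05. Filled points of the collagen, matrix partner, lysine modification and BMP1 substrate lists all lie below 0, whereas those of the lysyl oxidase list lie on both sides.

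Other procollagen proteinases and enhancers numbered 6, of which 5 were in the files and 3 were tested. TLL1, a tolloid protease that can act like BMP1, fell from 35.7, 39.8 and 34.2 to 22.8, 34.9 and 24.7 CPM (log2 fold change -0.43, SE 0.0859, edgeR adjusted p = 0.0015). TLL2, its relative, had 0 counts in each siControl library and 4, 5 and 1 in siOGT and did not pass (edgeR adjusted p = 0.088). MEP1B had 1 to 5 counts per library. The median log2 fold change of the 3 genes, 1.43, is that of MEP1B and rests on its 1 to 5 counts per library. Without the pairing TLL1 was not called.

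Proprotein convertases, which cut the propeptide of BMP1 and of ADAMTS2, numbered 4, with 3 tested. PCSK7 rose from 54.6 ± 2.03 to 73.3 ± 2.82 CPM with no overlap between groups (log2 fold change 0.42, edgeR adjusted p = 2.428e-04), and FURIN and PCSK5 did not pass. Among all genes tested, 12.7% were called higher, and 12.1% had all siOGT libraries above all siControl libraries. The median was 0.20, and without the pairing PCSK7 was not called.

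The 5 matrix partners that bind or present lysyl oxidases had a median of -0.28. Of these, 3 fell and none rose, where 12.7% of all genes tested were called lower. They were POSTN (-1.03, edgeR adjusted p = 1.165e-04), which assists LOX activation through BMP1, FN1 (-0.28, 0.038), the fibronectin scaffold, and EFEMP2 (-0.22, 0.019), which brings LOX to elastin. The log2 ratios of FN1 were -0.45, 0.12 and -0.53, so that its pairs did not all go the same way. FN1 was not called by DESeq2 (adjusted p = 0.345), with library totals alone (0.059), with the filterByExpr filter (0.056), without replicate 1 (0.331, log2 fold change -0.20) and without replicate 3 (0.245, log2 fold change -0.17), and without replicate 2 the log2 fold change was -0.49. EFEMP2 lost its call without replicate 1 (0.173). Without replicate 1, 1 gene of the list was called lower, where 1803 of 14456 genes were called in either direction. Without the pairing none was, where 0.875% of all genes were called.

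The 4 copper supply genes, which bring the metal cofactor to lysyl oxidases in the secretory pathway, all had small positive values, 0.18 to 0.20 on the log2 scale with a median of 0.19. By edgeR 0 passed after adjustment and 1 had an unadjusted p under 0.05, where 36.7% of all genes did. DESeq2 called 0 of them, where it called 16.3% of all genes. With scaling by library totals alone, 1 was called higher.

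Of 6 genes for collagen lysine modification, which prepares the lysines that lysyl oxidases use, 2 fell and none rose. Over all genes tested, 12.7% were called lower, and the median of these 6 was -0.08. PLOD1, a lysyl hydroxylase of the helix, fell from 162 ± 6.40 to 132 ± 8.07 CPM (log2 fold change -0.30, edgeR adjusted p = 0.0024), and FKBP10, a chaperone for telopeptide hydroxylation, fell from 138 ± 16.7 to 115 ± 7.24 CPM (-0.26, 0.0072). Neither was called without replicate 1 or without the pairing.

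Other BMP1 substrates numbered 8, with 6 in the files and 5 tested, of which 2 fell and none rose. Their median was -0.55, and 12.7% of all genes tested were called lower. COL7A1, the anchoring fibril collagen, fell from 27.9 ± 5.93 to 15.7 ± 4.64 CPM (log2 fold change -0.85, edgeR adjusted p = 4.056e-06). HSPG2, which encodes perlecan, fell from 261 ± 47.7 to 179 ± 37.8 CPM (-0.55, 5.698e-05). Neither was called without the pairing.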

How the data were processed

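RNA of LX-2 cells was enriched with oligo-dT and sequenced paired-end from stranded libraries. The authors aligned reads to hg38 with Bowtie2 2.3.5.1 and estimated counts per gene with RSEM 1.3.1, using strand. The deposited values are expected counts, not normalized. The methods name a GENCODE annotation of GRCh38. The authors' own comparison table (DESeq2 fold changes and p-values) was not used.

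Expected counts were rounded, genes with a total below 10 were removed (2054 of 16907, 0.00447% of counts), and TMM factors (0.979 to 1.02) were applied. The two-sided quasi-likelihood test of edgeR 4.0.16 (R 4.3.3) was fitted over 14853 genes with the replicate number as a block, with Benjamini-Hochberg adjustment. A gene is called at an adjusted p of at most 0.05, and "rose" and "fell" are used for called genes. SE and 95% intervals come from the F statistic. A prior count of 2 was added for log2 ratios of pairs. Levels per length use the canonical transcript of GENCODE 44 on hg38, the source of coordinates and overlaps.

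Samples were treated as paired by replicate number, as in the study's methods. Deviations of same-numbered libraries had correlations of 0.69, 0.53 and 0.33 in replicates 1 to 3 over 12373 genes, which are not independent replicates. Over the 9 members tested the correlations were 0.75, 0.82 and 0.17. The smallest chi-square per degree of freedom between libraries of a group was 19.4. The members and gene lists were chosen with earlier results of these data known. All members are named. From each list, called genes are named if at most 4 moved in a direction, otherwise the 3 with the largest change; COL1A1 is named as a substrate, and other uncalled genes for their counts. The alternatives were no pairing, DESeq2 1.42.0, median-ratio size factors, library totals alone, no filter, the filterByExpr filter and leaving out each replicate.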

Additional observations from a re-analysis of the deposited data

How the results depend on the processing

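Without the replicate block, 130 genes were called (3766 with it), among them 1 member (PCOLCE), 1 member lower and 0 higher, and the lists had 1 fibrillar collagen lower and 0 other procollagen proteinases lower, 0 proprotein convertases higher, 0 matrix partners, 0 lysine modification genes and 0 BMP1 substrates lower. DESeq2 with the block called 2415 genes, 3 members and 1 member higher. Leaving out 1 replicate gave 1803 to 3439 called genes, 3 to 6 members, 1 to 3 members lower and 1 to 3 higher, 4 to 7 fibrillar collagens lower, 1 to 3 matrix partners lower and 0 to 2 lysine modification genes lower. The low ends for all genes, collagens, matrix partners and lysine modification came without replicate 1. With library totals alone, 1 copper supply gene was called higher, and the median log2 fold change of all genes was 0.03. The BMP1 log2 fold change was -0.10 to 0.02 when a replicate was left out, 0.018 without replicate 3, and it was not called in any analysis. No other member changed direction under these alternatives. The causes of these changes were not tested. Library totals differed little, and PCOLCE2 was too sparse to test.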
